A study of Mus musculus with 1073 samples.

Results

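Platelets carry a store of ready-made proteins that they release when a vessel is damaged. The megakaryocyte, the platelet precursor, loads this store into α-granules (chemokines, adhesive proteins and coagulation factors) and dense granules (small molecules), and small GTPases and signalling proteins bring the granules to the plasma membrane. In the yolk sac, megakaryocytes arise early in development beside primitive erythrocytes, haematopoietic progenitors and macrophages, so the granule programme can be followed from its first transcripts.

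The measurements described here concern 10 genes of this programme, chosen by name from the 15967 genes of the filtered count table, and all 10 were in that table. *Pf4* (platelet factor 4) and *Ppbp* (the precursor of the platelet basic protein family) encode CXC chemokines of the α-granule. *Vwf* (von Willebrand factor), *Thbs1* (thrombospondin 1) and *F5* (coagulation factor V) encode its adhesive and coagulation proteins, *Srgn* encodes serglycin, the proteoglycan to which granule cargo binds, and *Selp* encodes P-selectin, an adhesion receptor of the granule membrane. *Plek* (pleckstrin) encodes the main protein kinase C substrate of platelets and *Rab27b* a GTPase of granule secretion. *Hpgd* encodes the enzyme that inactivates prostaglandins and is not a granule protein.

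The study sorted yolk sac cells from mouse embryos, captured them singly on a microfluidic circuit with an aperture of 10 to 17 µm and sequenced the mRNA of each cell, to follow how blood and endothelium diverge from mesoderm. Of 1073 captured cells 926 were kept by the authors, in 13 populations. The mesodermal derivatives expressing FLK1 numbered 287 and came from Flk1-GFP/+ embryos at E7.25 and E7.75 (140 cells at E7.75), and all other populations came from C57BL/6 embryos. Progenitors (HPC, called EMP in the sample labels) were sorted as CDH5+ CD41+ in embryos of E8.25 (73 cells) and E8.5 (89 cells), and as CDH5- CD45+ CD41low at E9.5 (46 cells) and E10.5 (87 cells). Megakaryocytes (Mk) were TER119- CDH5- CD41+ at E8.5 (37 cells) and, in addition, CD45- and CD41high at E10.5 (73 cells). The remaining populations were E10.5 macrophages (Mac, 25 cells), primitive erythrocytes (EryP, 66 cells at E8.5 and 3 at E10.5) and endothelium (Endo, 79 cells at E8.5 and 61 at E10.5). No embryo or pool was named for any cell, so each population counted as 1 sorted sample, no test between populations was possible, and the intervals below cover counting error only.

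The deposited levels were counts scaled by size factors to about 1000000 per cell (CPM), with total counts of 483830 to 5943204 per cell. The labels put E7.25, E8.25 and E8.5 on a first flow cell and the other 3 stages on a second, so stage and sequencing run cannot be told apart, and neither can the change of gate between the early and late HPC and Mk. The 8 platelet receptor genes used to check the Mk label (such as *Itga2b* and *Gp9*) summed to 1021 to 13006 CPM in every E10.5 Mk and to 49.7 to 2300.3 CPM in E8.5 Mk, against 0 to 812 CPM in E10.5 HPC. In E8.5 HPC they summed to 1.62 to 1891 CPM (median 288 CPM), so that range overlapped widely with E8.5 Mk (median 633 CPM). The E8.5 Mk also held 4 EryP marker genes (embryonic globins and *Alas2*) at a summed median of 25178 CPM, with a range of 44.1 to 141981 CPM, where the median was 104266 CPM in E8.5 EryP and 19.4 CPM in E10.5 Mk. None of 4 Mac marker genes had a count in any E8.5 Mk, and in E10.5 Mk they summed to at most 37.4 CPM.

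*Pf4* and *Ppbp* lie side by side on chromosome 5 (GRCm38, plus strand), *Pf4* at 90772435 to 90773383 and *Ppbp* at 90768518 to 90770063, with 3917 bases between their starts. RefSeq promoter windows (GRCm38.p6, 250 bases before to 50 after the start) were found for 7 of the 10 genes, and not used here for *Vwf*, *Thbs1* and *Rab27b*. The windows of 4 genes are shown because they set a pair with transcripts in E8.5 Mk (*Pf4* and *Plek*) beside a pair with none there (*Ppbp* and *Hpgd*). Capitals mark the letters AGATAA or TGATAA (the core bound by GATA factors), AGGAAG or CGGAAG (ETS factors) and TGTGGT (RUNX factors), each on either strand, and TATAAA (the TATA box) on the strand of the gene, and no marked motif overlapped another except the ETS matches of *Hpgd*, which overlap each other.
Pf4, chr5:90772185-90772484, plus strand: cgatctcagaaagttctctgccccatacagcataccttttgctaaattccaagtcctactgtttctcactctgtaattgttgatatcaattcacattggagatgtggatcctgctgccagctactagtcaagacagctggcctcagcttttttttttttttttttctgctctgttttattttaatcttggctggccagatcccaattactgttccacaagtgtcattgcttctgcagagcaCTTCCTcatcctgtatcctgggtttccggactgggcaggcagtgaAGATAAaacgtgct
Ppbp, chr5:90768268-90768567, plus strand: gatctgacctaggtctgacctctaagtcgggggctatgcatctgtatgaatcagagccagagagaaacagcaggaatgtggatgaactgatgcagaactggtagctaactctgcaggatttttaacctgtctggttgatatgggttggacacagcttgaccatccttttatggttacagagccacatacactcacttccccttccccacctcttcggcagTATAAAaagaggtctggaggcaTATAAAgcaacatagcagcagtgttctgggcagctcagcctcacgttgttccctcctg
Plek, chr11:17008669-17008968, minus strand: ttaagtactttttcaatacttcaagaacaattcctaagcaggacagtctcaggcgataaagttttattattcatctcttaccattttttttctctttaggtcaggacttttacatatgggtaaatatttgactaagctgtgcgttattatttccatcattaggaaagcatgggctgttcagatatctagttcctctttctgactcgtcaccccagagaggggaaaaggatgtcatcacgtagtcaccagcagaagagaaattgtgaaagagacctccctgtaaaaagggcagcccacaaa
Hpgd, chr8:56294302-56294601, plus strand: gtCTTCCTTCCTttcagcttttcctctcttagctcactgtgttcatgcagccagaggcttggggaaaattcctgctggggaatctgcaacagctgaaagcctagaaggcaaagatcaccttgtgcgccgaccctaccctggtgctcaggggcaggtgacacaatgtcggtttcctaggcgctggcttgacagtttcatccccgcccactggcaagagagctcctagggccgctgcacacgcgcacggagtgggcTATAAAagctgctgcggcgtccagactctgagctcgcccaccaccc

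The *Pf4* window held 1 GATA match, which began 36 bases after the start, and 1 ETS match that began 9 bases before it. In the *Ppbp* window no GATA, ETS or RUNX match was found with these letters, and TATAAA occurred 30 and 8 bases before the start. The *Plek* window held none of these letters, and the *Hpgd* window held 2 ETS matches at its far end, 248 and 244 bases before the start, and TATAAA 4 bases after it. These starts are those of RefSeq. GENCODE M21 starts *Hpgd* at 56294585, so the TATAAA lies before that start. It starts *Plek* at 17052381 on the minus strand, so the *Plek* window lies inside the GENCODE gene. Over all 32851 windows of this length, 18.6% held the GATA letters, 46.5% the ETS letters, 16.8% the RUNX letters and 8.32% TATAAA. A match describes letters in a window, not a bound site.

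**Figure D1:**
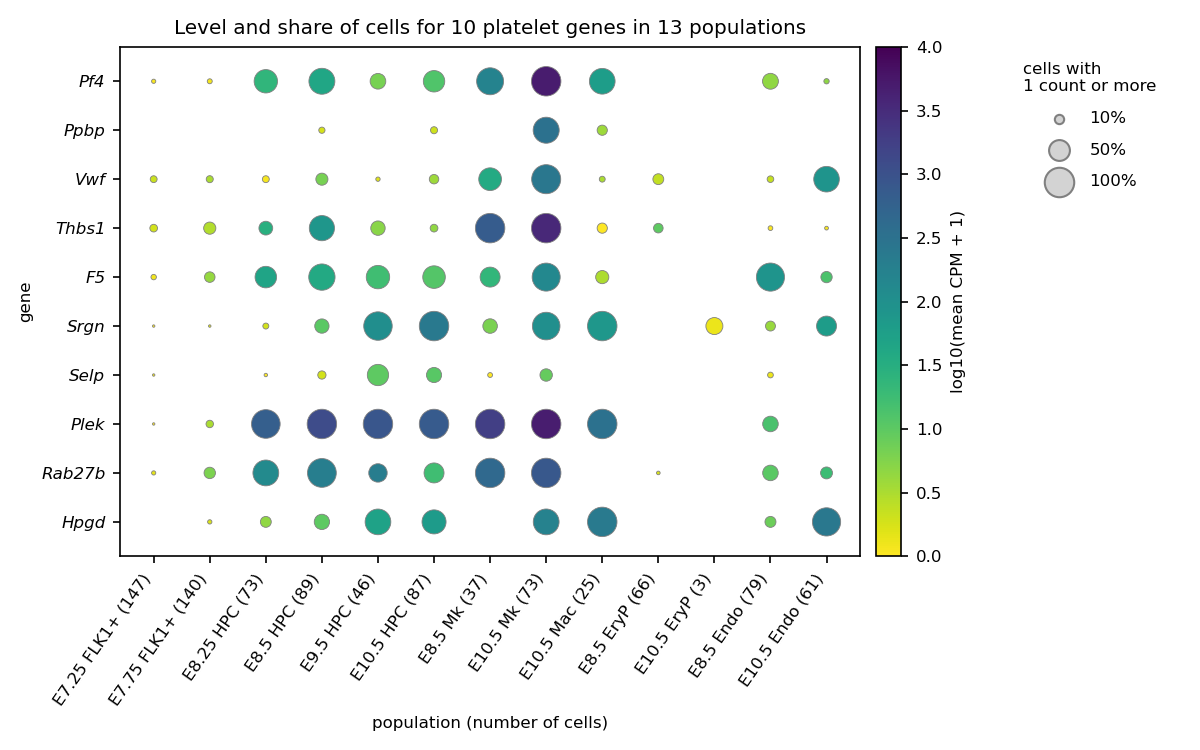
Each circle gives 1 gene (rows) in 1 population (columns, with the number of cells); its area is the percentage of cells in which the gene had a count and its colour is log10 of the mean CPM + 1. *Plek* filled every HPC and Mk column, *Ppbp* was large only in E10.5 Mk, and the EryP columns were nearly empty.

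Among the chemokines, *Pf4* was found from the first progenitors sampled and *Ppbp* almost only in E10.5 Mk. In E10.5 Mk *Pf4* ranged over cells from 132.8 to 19413 CPM with a median of 4302 and a mean of 4902 CPM, and every one of the 73 cells had a count (exact Clopper-Pearson 95% interval of the share 95.1 to 100%). In E8.5 Mk the range was 0 to 1236 CPM, the median 15.2 and the mean 163 CPM, with counts in 31 of 37 cells (83.8%, 68.0 to 93.8%). At E8.5 a minority of cells with high levels set the mean, as the distance from the median shows, whereas at E10.5 mean and median were close. Of the 73 E10.5 Mk, 61 lay above the highest E8.5 Mk, and the mean was 30.0-fold higher at E10.5. In HPC the mean *Pf4* level was, in order of stage, 23.2, 41.5, 5.65 and 11.6 CPM, with counts in 63.0%, 77.5%, 28.3% and 52.9% of cells. The highest E10.5 HPC (171 CPM) reached above only 2 of the 73 Mk of that stage.

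*Pf4* transcripts were not restricted to the Mk gate. E10.5 Mac ranged from 0 to 608 CPM, with a median of 2.40 and a mean of 60.3 CPM, and 19 of 25 cells had a count (76%, 54.9 to 90.6%). The platelet receptors summed to a median of 0.192 CPM and at most 52.1 CPM in these Mac, with 4 of the 8 (*Gp1bb*, *Gp1ba*, *Gp5* and *Gp6*) at 0 in every cell, and their part in the *Pf4* level was not tested. In Endo *Pf4* was found in 29.1% of cells at E8.5 (19.4 to 40.4%) and in 2 of 61 cells at E10.5, with means of 3.57 and 3.78 CPM. None of the 66 E8.5 EryP had a count, which allows a share of up to 4.55%.

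*Ppbp* had no count in any of the 37 E8.5 Mk, which allows a share of up to 8.11% of cells, and none in E7.25, E7.75, E8.25 HPC, E9.5 HPC, EryP or Endo cells. In E10.5 Mk it was found in 57 of 73 cells (78.1%, 66.9 to 86.9%), from 0 to 5722 CPM with a median of 15.3 and a mean of 318 CPM. The single highest cell carried 24.7% of the summed level, and the mean without it was 243 CPM. Outside the Mk, *Ppbp* counts were seen in 4 of 89 E8.5 HPC, 5 of 87 E10.5 HPC and 3 of 25 Mac, at no more than 62.0 CPM. Every one of those 12 cells, and every *Ppbp*-positive Mk, also had *Pf4* counts.

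**Figure D2:**
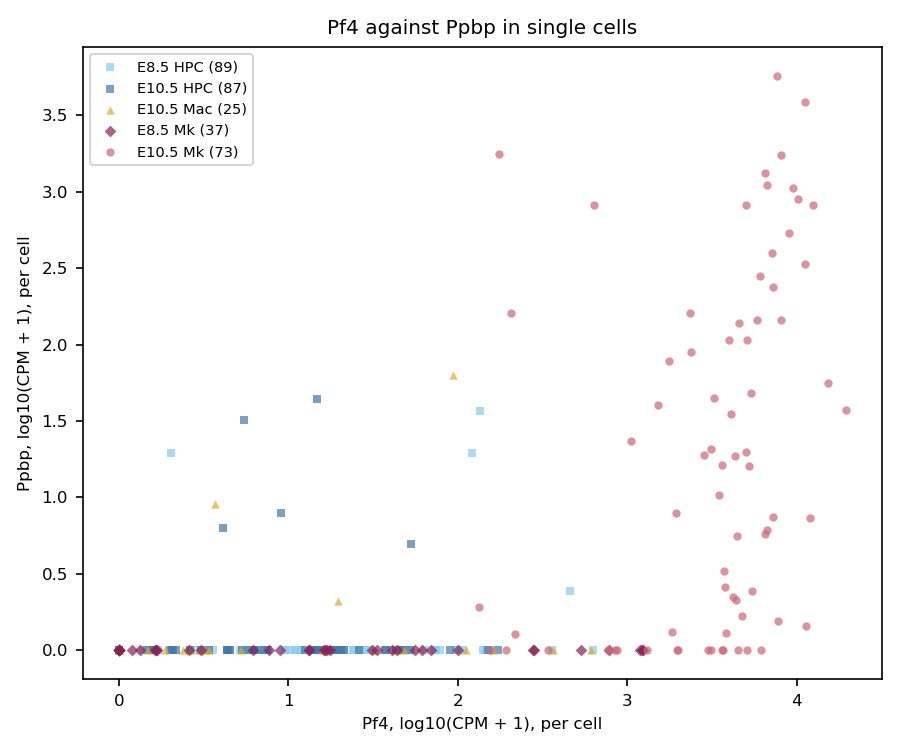
Each point is 1 cell, placed by its *Pf4* level (horizontal) and its *Ppbp* level (vertical), both as log10(CPM + 1), with colour and shape for the population. The E8.5 Mk lie along the floor at 0 *Ppbp* over their whole *Pf4* range, whereas 57 of 73 E10.5 Mk lie above it.

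The adhesive and coagulation genes were found earlier than *Ppbp*, and each outside the Mk as well. *Thbs1*, which encodes a large matrix glycoprotein that platelets release, was found in every Mk of both stages. Its level ranged from 2.72 to 2585 CPM in E8.5 Mk (median 492, mean 709 CPM) and from 5.50 to 26695 CPM in E10.5 Mk (median 2523, mean 3569 CPM), and 33 of the 73 late cells exceeded the highest early one. *Thbs1* was also found in 65 of 89 E8.5 HPC (73.0%, or 60.7% after thinning each cell to 840000 counts), mostly at low levels, since the median was 1.36 CPM, the highest cell 1870 CPM and the mean 78.3 CPM. By E10.5 it was found in 6 of 87 HPC, with a mean of 3.55 CPM. In Mac and Endo its mean was at most 0.0893 CPM. Over all 41 captured Mac, scaled to their own totals, the mean was 31.8 CPM, and 2 of the 16 Mac removed by the authors had counts.

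*Vwf*, the ligand that tethers platelets to the vessel wall, was found in 22 of 37 E8.5 Mk (59.5%, 42.1 to 75.2%), from 0 to 248 CPM with a median of 1.05 and a mean of 35.9 CPM. At E10.5 71 of 73 Mk had counts, up to 1787 CPM, with a median of 150.8 and a mean of 259 CPM. The ranges overlapped widely, as 18 late Mk lay above the highest early one. *Vwf* also differed between the stages of Endo, where its mean was 1.21 CPM at E8.5 (4 of 79 cells) and 84.9 CPM at E10.5 (46 of 61 cells), with a late range of 0 to 1633 CPM and a median of 3.55 CPM. In HPC its mean stayed at or below 5.67 CPM at every stage.

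*F5*, a cofactor of thrombin generation, had its second highest mean outside the blood. In E8.5 Endo it was found in 72 of 79 cells (91.1%, 82.6 to 96.4%), from 0 to 561 CPM with a median of 39.2 and a mean of 82.7 CPM, and by E10.5 in 9 of 61 cells with a mean of 12.4 CPM, of which 1 cell at 529 CPM carried 70.1%. In Mk the mean was 22.5 CPM at E8.5 and 132.6 CPM at E10.5. The early Mk mean rested on 1 cell at 536 CPM, without which it was 8.18 CPM, and the median was 0 CPM at E8.5 and 56.0 CPM at E10.5. HPC held *F5* at 45.1, 37.1, 15.9 and 10.7 CPM from E8.25 to E10.5, and the quartiles of neighbouring stages overlapped. Reads could not be told apart from an antisense gene that overlaps exons of *F5* and *Selp* (*Gm16548*), or from further ones at *Selp* (*Gm16587*) and *Thbs1* (*Gm29233*), since the strand of the libraries was not given in the sources used here.

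*Srgn*, the proteoglycan core of secretory granules in many blood cells, was the member whose mean at E10.5 was lower in Mk than in HPC by 2-fold or more. In HPC *Srgn* was found, in order of stage, in 3 of 73, 21 of 89, 43 of 46 and 87 of 87 cells, with means of 0.908, 9.66, 108.6 and 240.0 CPM. At E10.5 the range was 2.28 to 738 CPM and the median 218 CPM, and 44 of the 87 cells lay above the highest E8.5 HPC (216 CPM). In Mk it was found in 9 of 37 cells at E8.5, with a mean of 5.40 CPM, and in 64 of 73 cells at E10.5, with a median of 62.6 and a mean of 105.2 CPM. Only 5 of the 73 E10.5 Mk lay above the median of the HPC of that stage. Mac held *Srgn* in 25 of 25 cells, with a median of 28.1 and a mean of 74.2 CPM.

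*Selp*, whose product moves from the granule to the surface of activated platelets, was sparse throughout, with no mean above 10 CPM. It was found in 24 of 46 E9.5 HPC (52.2%, 36.9 to 67.1%), 23 of 87 E10.5 HPC (26.4%) and 13 of 73 E10.5 Mk (17.8%, 9.84 to 28.5%), with means of 8.80, 9.91 and 7.94 CPM. Most of the E9.5 cells had few counts, since the median was 0.182 CPM and the share was 33.3% after thinning. In E8.5 Mk 1 of 37 cells had *Selp*, with 2 counts, and no E10.5 Endo or Mac had any, which allows shares of up to 4.92% and 12%.

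**Figure D3:**
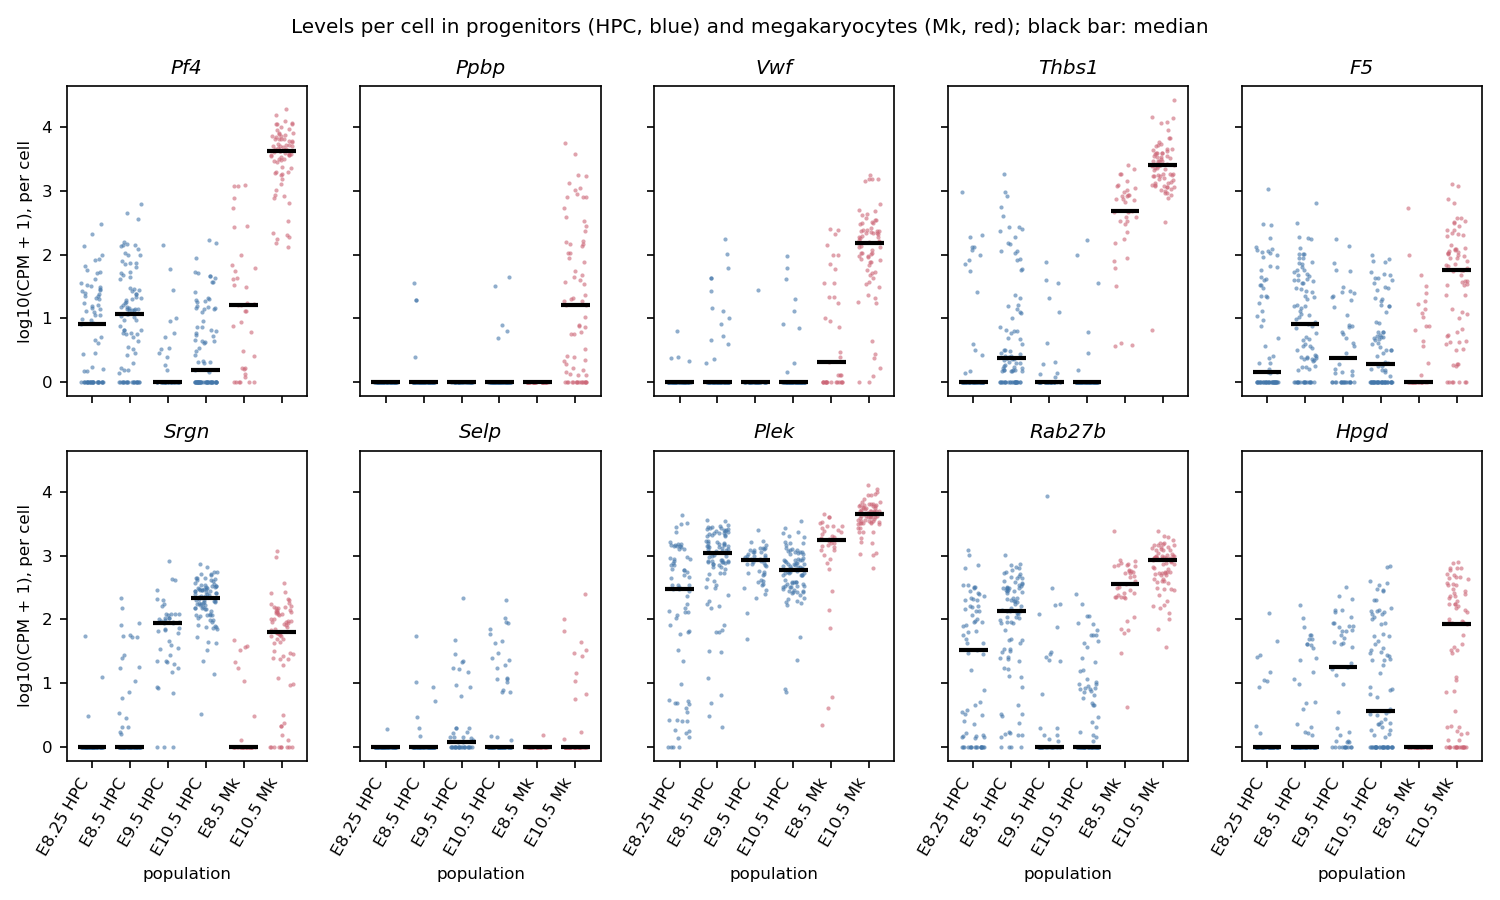
Each panel gives 1 gene, each point 1 cell, and the vertical axis log10(CPM + 1); HPC are blue, Mk are red and the black bar is the median of the population. *Plek* medians stay between 293 and 4517 CPM in all 6 populations, *Rab27b* medians drop to 0 in the late HPC, and *Ppbp* and *Hpgd* are at 0 in every E8.5 Mk.

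*Plek* and *Rab27b* were found in every Mk of both stages. *Plek* counts were found in every HPC from E8.5, every Mk and every Mac, and in 69 of 73 E8.25 HPC. Its level ranged from 1.19 to 4464 CPM in E8.5 Mk (median 1734, mean 1805 CPM) and from 631 to 12600.5 CPM in E10.5 Mk (median 4517, mean 4716 CPM). In HPC the mean was 629, 1237, 849 and 747 CPM from E8.25 to E10.5, and the quartiles of neighbouring populations in that order overlapped. In Mac the mean was 319.6 CPM against a median of 51.4 CPM. E8.5 Endo held *Plek* in 22 of 79 cells, with 1 cell at 507 CPM carrying 49.0% of the sum, and no E10.5 Endo had a count. *Plek* shares 199 exonic bases with *Cnrip1* on the opposite strand.

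*Rab27b* was found in all Mk, from 3.18 to 2404 CPM at E8.5 (median 351, mean 447 CPM) and from 36.3 to 2476 CPM at E10.5 (median 847, mean 829.8 CPM). It was the only one of the 9 members past the filter whose Mk means differed by less than 2-fold (1.85-fold). Without the highest E8.5 Mk it was 2.11-fold higher at E10.5, past the 2-fold limit. In HPC it was found, in order of stage, in 76.7%, 95.5%, 39.1% and 46.0% of cells, and the medians were 31.8, 132.6, 0 and 0 CPM. The E9.5 mean of 211 CPM came from 1 cell at 8726 CPM, without which it was 21.8 CPM, and the E10.5 mean was 15.7 CPM. None of 25 Mac had a count, which allows a share of up to 12%.

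*Hpgd* had no count in the 37 E8.5 Mk, which allows up to 8.11% of cells, although it was found in 24 of 89 HPC of that stage (27.0%, 18.1 to 37.4%). In E10.5 Mk it was found in 56 of 73 cells (76.7%, 65.4 to 85.8%), from 0 to 785 CPM with a median of 84.7 and a mean of 166 CPM. Its highest means were elsewhere, as E10.5 Endo held 249.8 CPM (56 of 61 cells, median 41.7 CPM) and Mac 231 CPM (25 of 25 cells, median 56.6 CPM). In HPC its mean was 3.64, 8.97, 48.6 and 64.8 CPM from E8.25 to E10.5. Thus *Hpgd* was low at E8.5 and higher at E10.5 in HPC, Mk and Endo alike, which *Ppbp* was not.

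Read against all genes, the members stood mostly on one side between the Mk stages. A gene passed the filter with a mean of 10 CPM or more in either population, and a difference of 2-fold or more in mean CPM + 1 was counted. A gene under 10 CPM in 1 population passed through the other alone, and could be counted only as higher in that other. Of 8983 genes past the filter, 16.3% were 2-fold or more higher at E10.5 and 12.7% lower. Of the 10 members 9 passed (not *Selp*), 8 were higher by 2-fold or more and none lower, with a median log2 ratio of 2.82 where that of all genes was -0.05. *Ppbp*, *Hpgd* and *Srgn* passed through E10.5 alone, so none of these could be counted lower. With no counts at E8.5, *Ppbp* and *Hpgd* were bound to be counted higher. The log2 ratios were 4.90 for *Pf4*, 4.05 for *Srgn*, 2.82 for *Vwf*, 2.51 for *F5*, 2.33 for *Thbs1*, 1.39 for *Plek* and 0.89 for *Rab27b*. The *F5* mean was 5.91-fold higher at E10.5, or 16.2-fold without the highest E8.5 cell. *Ppbp* and *Hpgd*, with no early counts, were at least 12988-fold and 6802-fold higher against a floor of 3 counts over the E8.5 Mk. All 4 EryP markers were lower at E10.5 by 2-fold or more, with a median log2 ratio of -7.88, and their part in the Mk differences was not tested.

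Other genes of the granule pathway, from lists of textbook members, were counted in the same comparison. The filter passed 12 of the 17 other cargo genes measured, of which 10 were higher at E10.5 by 2-fold or more and 1 lower (median log2 ratio 2.53). Of all 8983 genes past the filter, 16.3% were higher and 12.7% lower. Among the cargo genes *Mmrn1*, which encodes the factor V carrier multimerin, had means of 55.0 and 886 CPM. *Clu* (clusterin) had 143.3 and 1133 CPM, *Timp3* 186 and 1285 CPM, and *F13a1* (the A chain of coagulation factor XIII) 7.95 and 123.7 CPM. The 1 lower gene, *Igf1*, had 10.1 and 2.18 CPM. All 8 platelet receptors were higher by 2-fold or more (median log2 ratio 2.62), from *Itgb3* at 433 and 1466 CPM to *Gp6*, the collagen receptor, at 2.87 and 131.9 CPM. *Itgb3* was in both lists and is also among the 10 higher cargo genes, so the lists are not separate. Of the genes named, *F13a1* and *Gp6* passed the filter through E10.5 alone and *Igf1* through E8.5 alone, which fixed their direction.

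The genes that build and move granules differed less. The filter passed 22 of the 23 biogenesis and secretion genes measured, of which 12 were higher by 2-fold or more and none lower, with a median log2 ratio of 1.11. The shares over all genes, for this and the next 2 lists, were 16.3% higher and 12.7% lower. *Snap23*, a SNARE protein, was at 443 and 445 CPM, *Stxbp2* at 199.9 and 421 CPM, *Vps33b* at 48.6 and 189 CPM, and *Sytl4*, a RAB27 effector, at 0.176 and 26.3 CPM. Of the 6 dense granule genes 5 passed and 2 were higher, *Slc35d3* (31.3 and 228 CPM) and *Abcc4* (2.22 and 19.9 CPM). *Slc18a2*, the serotonin transporter of dense granules, was at 171 and 116.3 CPM. Of the genes named, *Sytl4* and *Abcc4* passed the filter through E10.5 alone, so they could not be counted lower. Of 12 measured genes of prostanoid and related lipid mediator synthesis, breakdown and reception, to which the prostaglandin dehydrogenase encoded by *Hpgd* also belongs, 7 passed, 4 were higher and 1 lower. The 4 were *Ptgs1* (cyclooxygenase 1, 69.4 and 422 CPM), *Tbxas1* (thromboxane synthase, 17.8 and 117.4 CPM), *Alox12* (29.0 and 281 CPM) and *Pla2g4a* (201 and 453 CPM), and the lower one was *Ptges3*, at 6186 and 2000.5 CPM, a co-chaperone as well as a prostaglandin synthase.

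**Figure D4:**
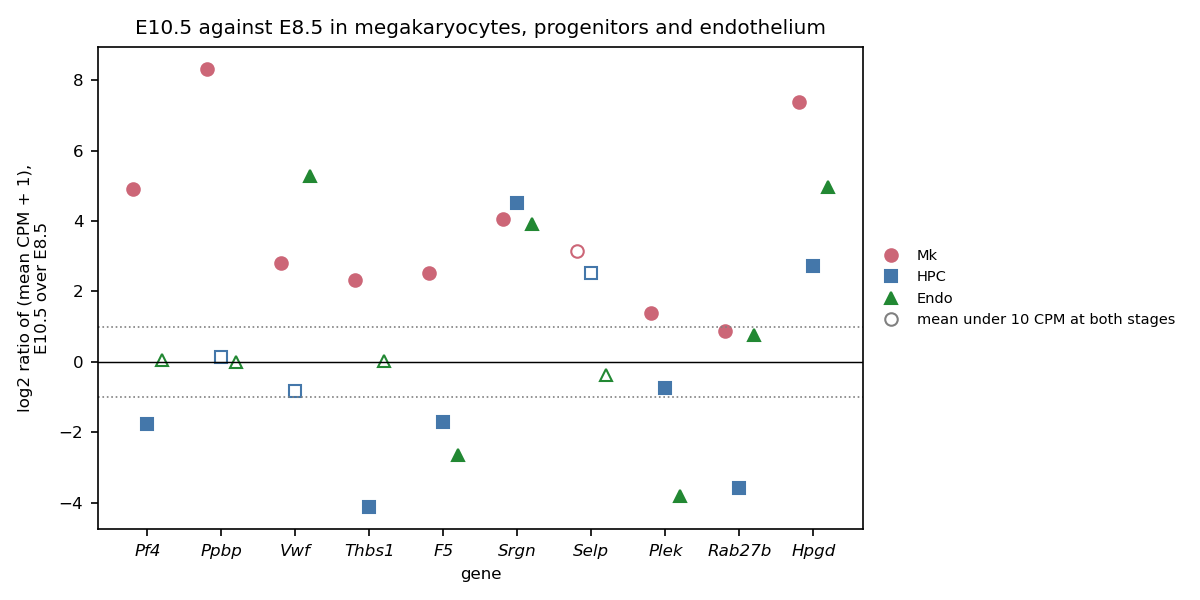
The vertical axis is the log2 ratio of mean CPM + 1 at E10.5 over E8.5, for each gene, in Mk (circles), HPC (squares) and Endo (triangles); open symbols had means under 10 CPM at both stages, and dotted lines mark 2-fold. *Pf4*, *Thbs1* and *F5* lie above 0 in Mk and below 0 in HPC, and *Srgn* and *Hpgd* lie above the upper line in all 3 populations; the values of *Ppbp* and *Hpgd* in Mk and of *Plek* in Endo are set by the added 1 CPM, since 1 stage had no counts.

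In HPC the members differed between stages in both directions. Between E8.25 and E8.5, within 1 flow cell and 1 gate, 5 members passed the filter. Of these 1 was 2-fold or more higher (*Thbs1*, 2.73-fold), against 2.86% of 8879 genes, and none was lower, against 3.82%. The *Thbs1* value was 5.05-fold without the highest E8.25 cell. Without the highest E8.5 cell it was 2.02-fold, which falls under the 2-fold limit in mean CPM + 1. Between E8.5 and E9.5, where gate and flow cell both changed, 2 of 7 were higher (*Srgn*, 11.2-fold, and *Hpgd*, 5.42-fold) and 3 lower (*Thbs1* 19.3-fold, *Pf4* 7.35-fold and *F5* 2.34-fold), against 11.5% and 13.1% of 9250 genes. Without the highest E9.5 cell of each gene *Thbs1* was 31.4-fold and *Pf4* 15.5-fold lower, and *Rab27b*, which had nearly the same mean at both stages, was 9.05-fold lower. Without the highest E8.5 cell *F5* was 1.89-fold lower, under the 2-fold limit. From E9.5 to E10.5, again within 1 flow cell and gate, *Srgn* was 2.21-fold higher and *Rab27b* 13.4-fold lower among the 6 that passed, against 5.86% and 8.73% of 9050 genes, and the *Rab27b* value was 1.39-fold without the 1 high E9.5 cell. Over the whole interval from E8.5 to E10.5, 2 of 7 were higher and 4 lower, *Thbs1* (22.0-fold, or 47.5-fold without the highest E10.5 cell), *Rab27b* (12.6-fold), *Pf4* (3.59-fold) and *F5* (3.47-fold), against 9.02% and 12.0% of 9184 genes. The median log2 ratio of the 7 was -1.70, and -0.08 for all genes. Over this interval *Srgn* and *Hpgd* passed the filter through E10.5 alone and *Thbs1* through E8.5 alone, which fixed their direction. Between E8.5 and E9.5 the direction was fixed likewise, for *Srgn* and *Hpgd* through E9.5 alone and for *Thbs1* and *Pf4* through E8.5 alone.

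Within a stage, more members were higher in Mk than in HPC at E10.5 than at E8.5, and by larger folds. At E8.5 6 members passed, and *Thbs1* (9.05-fold), *Vwf* (6.32-fold), *Pf4* (3.93-fold) and *Rab27b* (2.26-fold) were 2-fold or more higher in Mk, against 6.28% of 8963 genes, and none was lower, against 11.1%. *Plek* (1.46-fold higher) and *F5* (1.65-fold lower) were not past 2-fold. *Vwf* passed through Mk alone (HPC mean 5.67 CPM), so it could not be counted lower. Without the highest HPC of that stage the *Vwf* fold was 9.67. Without the highest Mk *F5* was 4.53-fold lower, and *Rab27b* was 1.99-fold higher, under the 2-fold limit. At E10.5 9 passed, 8 were higher in Mk, against 14.8% of 9241 genes, and *Srgn* was 2.28-fold lower, against 11.8%. *Ppbp*, *Vwf* and *Thbs1* passed through Mk alone (HPC means 1.04, 2.79 and 3.55 CPM), so they could not be counted lower. The folds at E10.5 were 1004 for *Thbs1*, 423 for *Pf4*, 307 for *Ppbp*, 92.8 for *Vwf*, 52.8 for *Rab27b*, 12.4 for *F5*, 6.31 for *Plek* and 2.57 for *Hpgd*. The highest E10.5 HPC carried 54.1% of the *Thbs1* sum, 47.7% of the *Ppbp* sum and 39.5% of the *Vwf* sum, and without that cell of each gene these folds were 2163, 579.9 and 151.5. The other cargo list had 7 of 12 genes higher and 1 lower in Mk than in HPC (median log2 ratio 2.49), and the biogenesis list 8 of 22 higher and 1 lower (0.56). The lower cargo gene, *Igf1*, passed through HPC alone.

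When the 13 means of a gene were put in order, the middle 50% of cells overlapped between most neighbours. E10.5 Mk stood clear of the population next below it for *Pf4*, *Ppbp*, *Thbs1* and *Plek*, and E8.5 Mk stood clear of E8.5 HPC for *Thbs1*. Mac stood clear of E8.5 Endo for *Plek*. For *Rab27b* the E9.5 HPC, whose mean was set by 1 cell, overlapped neither E8.5 Mk above nor E8.5 HPC below, and E8.25 HPC stood clear of E10.5 Endo. For *Vwf*, *F5*, *Srgn*, *Selp* and *Hpgd* no neighbours were apart.

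Per kilobase of exon, which allows genes to be compared with each other, *Pf4* (6799 CPM per kb) was first in E10.5 Mk, followed by *Plek* (1051), *Thbs1* (588) and *Ppbp* (293), with *Selp* last at 1.80 CPM per kb. In E8.5 Mk *Plek* (402 CPM per kb) was ahead of *Pf4* (227) and *Thbs1* (116.7), and in E10.5 HPC *Plek* (167) and *Srgn* (109.3) led. These are levels of mean CPM over the union of annotated exons, whichever transcript a cell used.

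Among the other populations, the members split in Mac and Endo. Between Mac and HPC of E10.5, 6 members passed, *Pf4* (5.20-fold) and *Hpgd* (3.57-fold) were higher in Mac, and *F5* (5.09-fold), *Srgn* (3.23-fold) and *Plek* (2.34-fold) were lower, as was *Rab27b*, which was at least 243-fold lower against the floor of 3 counts. Without the highest Mac of each gene *Pf4* was 3.23-fold higher and *F5* 10.2-fold lower. The background was wide, with 22.4% of 9300 genes higher and 24.4% lower. *F5* and *Rab27b* passed the filter through HPC alone, which fixed their direction. The order of *Srgn* depended on the cells kept, because all 16 Mac removed by the authors had *Srgn* counts and the mean over all 41 captured Mac, scaled to their own totals, was 603 CPM. Between the Endo stages 3 of 6 were higher at E10.5 (*Vwf* 70.3-fold, *Hpgd* 35.5-fold and *Srgn* 19.4-fold) and 2 lower (*F5* 6.68-fold, and *Plek* by at least 315-fold), against 21.2% and 16.4% of 9938 genes. Single cells moved 5 of these values, since without the highest E8.5 cell of each gene the folds were 149.6 for *Vwf*, 55.95 for *Hpgd*, 39.1 for *Srgn* and at least 163 for *Plek*, and without the highest E10.5 cell 21.9 for *F5*. In this comparison *Vwf*, *Hpgd* and *Srgn* passed the filter through E10.5 alone and *Plek* through E8.5 alone, which fixed their direction.

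The FLK1+ mesoderm and the primitive erythrocytes held little of any member. At E7.25 81.6% of the cells had none of the 10, 27 cells had any, and the largest mean was 1.12 CPM (*Vwf*). At E7.75 73 of 140 had none, and the most frequent members were *Thbs1* (24 cells), *Rab27b* (21 cells) and *F5* (18 cells), with means of 1.93, 5.05 and 3.25 CPM. Each stage was sequenced in 2 lanes, and at E7.75 *Thbs1* was found in 17.0% and 17.2% of the cells of its lanes, *Rab27b* in 11.3% and 17.2% and *F5* in 9.43% and 14.9%. In E8.5 EryP *Vwf* (9 of 66 cells), *Thbs1* (7 cells) and *Rab27b* (1 cell) had counts, and the other 7 members had none. The means of *Vwf* and *Thbs1* were 1.34 and 8.97 CPM in E8.5 EryP and 35.9 and 709 CPM in E8.5 Mk. The E8.5 Mk also held EryP markers, and the part of erythroid transcripts in the Mk values was not tested.

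Counted cell by cell, the number of members found together had its highest median in the late Mk, although its range overlapped those of other populations. E10.5 Mk held a median of 9 of the 10 genes, with a range of 6 to 10, and 62 of 73 cells held 8 or more. The median was 5 in E8.5 Mk (3 to 7), 3 in E8.25 HPC, 5 in the HPC of each later stage, 4 in Mac, 2 and 3 in Endo, and 0 in FLK1+ cells and EryP. No cell reached 8 outside E10.5 Mk, except for 4 of 87 E10.5 HPC. After thinning to 840000 counts, which left out 46 shallower cells, the median was 9 in 67 E10.5 Mk and 5 in 37 E8.5 Mk, although the early Mk had been sequenced more deeply (2625003 to 5234733 counts per cell against 546033 to 4272429).

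**Figure D5:**
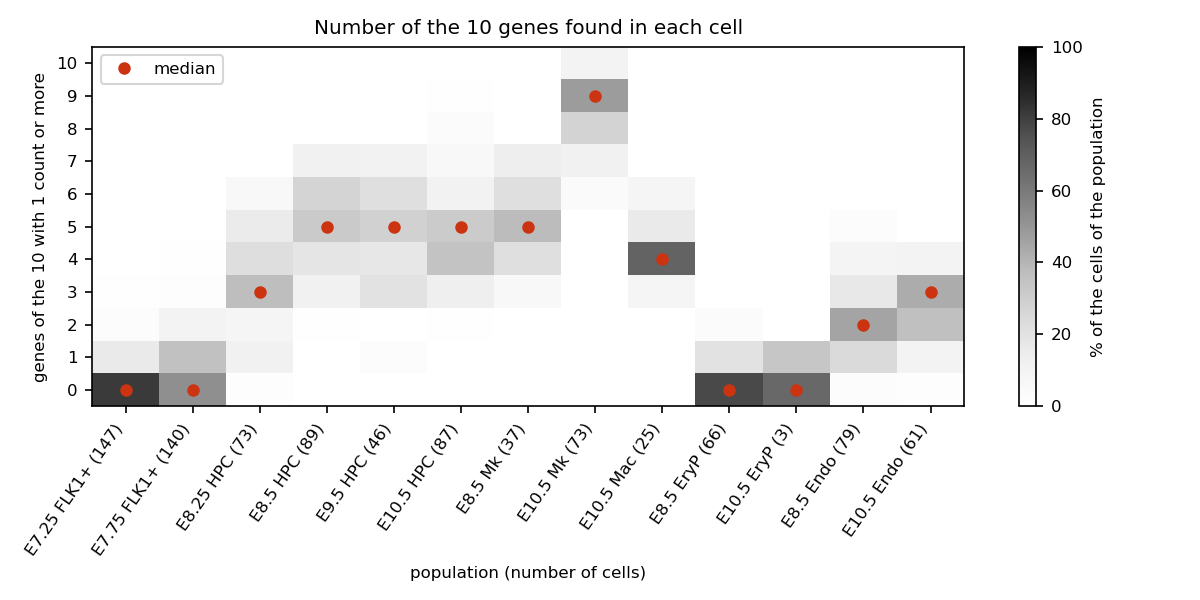
For each population (columns, with the number of cells), the grey scale gives the percentage of cells in which that number of the 10 genes (vertical axis) had 1 count or more, and the red point is the median. The E10.5 Mk column lies between 6 and 10 genes with its median at 9, whereas the E8.5 Mk column lies between 3 and 7.

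Within E10.5 Mk the levels of the members were weakly correlated over cells. Over the 73 cells, 32 of 36 pairs among the 9 genes found in 50% of the cells or more had a Spearman rho above 0, with a median of 0.29 and a range of -0.11 to 0.47. *Pf4* and *Ppbp* had a rho of 0.44. Each followed the summed platelet receptors about as closely (0.52 and 0.55), whereas rho with the total count of the cell was 0.19 and 0.12 and with the summed EryP markers -0.0092 and -0.14. In E8.5 Mk (37 cells) *Pf4*, *Plek* and *Rab27b* had a rho of 0.60, 0.50 and 0.47 with the platelet receptors and of -0.43, -0.63 and -0.54 with the EryP markers, and the 2 marker sums had a rho of -0.51 with each other. In E8.5 HPC the median rho over 10 pairs was 0.32, and in E10.5 HPC 0.01. Cells of 1 population share a sort, a circuit and a lane, and these values are a description.

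Across the 12 populations with 20 cells or more, the genes whose mean level was most like that of a member were named by the Pearson r of log2(mean CPM + 1), among 12192 genes. For *Thbs1* these were *Cideb* (r = 0.98), *Tubb1*, the megakaryocyte β-tubulin (0.98), and *Cc2d2b* (0.97). For *Pf4* they were *Mkl1* (0.96), *Rap1b* (0.95) and *Slc24a5* (0.94), and for *Ppbp*, *Serpinb2*, *Gm10419* and *Gm1720* (each 0.97). The last 3 were at 0 CPM in E8.5 Mk, a value that went into the ranking and is not a separate observation. *Plek* was most like *I830077J02Rik* (0.99), *Sla* (0.97) and *Alox5* (0.97), and *Rab27b* like *Pkd1l3* (0.96), *Mrvi1* (0.94) and *Bcl2l1* (0.93). *Vwf* was closest to *Nacc2* (0.94), *Tex2* (0.93) and *Creld1* (0.92), and *F5* to *Ctla2a* (0.96), *Ano6* (0.92) and *Stxbp3* (0.92). *Srgn* and *Hpgd* shared *H2-D1*, which encodes an MHC class I chain (0.95 with each), beside *Gbp7* (0.96) and *Galns* (0.95) for *Srgn*, and *Cd79b* (0.95) and *B2m* (0.93) for *Hpgd*. The 12 populations share flow cells and gates, so r is a description of these samples, and no gene was ranked for *Selp*, whose mean stayed under 10 CPM in every population.

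The neighbours of the members were read for the same populations. Within 100000 bases of *Pf4*, the CXC chemokine genes *Cxcl5* and *Cxcl3* were in the table beside *Ppbp*. Both were at 0 in E8.5 Mk, as *Ppbp* was, and in E10.5 Mk *Cxcl5* had a mean of 41.5 CPM (27.4% of cells) and *Cxcl3* of 5.15 CPM (17.8% of cells). In E10.5 HPC these means were 1.13 and 1.26 CPM, and in Mac and Endo both genes were at 0. *Pf4* was thus the only gene of this group with counts in E8.5 Mk. *Selp* and *F5* are also neighbours, with 36574 bases between their starts on chromosome 1, and their levels differed in E8.5 Endo (0.290 and 82.7 CPM) and in E10.5 Mk (7.94 and 132.6 CPM).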

How the data were processed

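Single yolk sac cells were sorted, captured on a Fluidigm C1 circuit and sequenced by the authors, who per the submitters' processing notes aligned reads to GRCm38 (an Ensembl genome release) with Subread and counted them per gene with featureCounts, and tool versions are not given in the sources used here. The deposited counts are raw reads per gene, not molecules, for all 1073 captured cells and for the 926 cells and 15967 genes kept by the authors. The deposited signal values are counts scaled by size factors across cells to about 1000000 each (CPM), whose sum per cell ran from 699615 to 4176737. Each of the 13 populations was 1 sample, because 0 columns named an embryo or pool, so no test was run. The 10 genes and the other gene lists were chosen with earlier results of these data known. All 10 members were named whatever their values, with the 3 genes most like each, and from each other list up to 4 genes with the highest mean in E10.5 Mk and up to 2 per direction with the largest Mk ratio. A gene of the erythroid marker list is not reported here. Levels are means over cells, detection is 1 count or more, shares carry exact Clopper-Pearson 95% intervals, a share of 0 is limited by 3 cells of the total, and ratios are log2 of mean CPM + 1, with a floor of 3 counts over a group at 0. Folds without log2 are ratios of mean CPM. Columns mapped to no sample numbered 0. Exon positions were from GENCODE M21. Scripts ran in Python 3.11.15 (pandas 2.3.3, numpy 2.4.6, matplotlib 3.10.9, scipy 1.17.1) and were tested on simulated data. Alternatives were own-total CPM, all captured cells, a pseudocount of 10, means of log2 values, other filters, a 4-fold limit, 10 counts for detection and thinning to 840000 counts.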

Additional observations from a re-analysis of the deposited data

Results flagged for a closer look

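Members whose 2-fold or larger difference between E8.5 and E10.5 went in opposite directions in different populations are listed here, and none of these differences was tested, because each population was 1 sample. Between Mk and HPC the log2 ratios of *Pf4* differed by 6.66 (4.90 in Mk and -1.76 in HPC), those of *Thbs1* by 6.45 (2.33 and -4.12) and those of *F5* by 4.21 (2.51 and -1.70). Between Mk and Endo the ratios of *F5* differed by 5.15 (2.51 and -2.64) and those of *Plek* by 5.20 (1.39 and -3.82), the last against an Endo population with no counts at E10.5, so that its size depends on the added 1 CPM. The HPC gate changed between these stages, and 1 cell carried 64.6% of the *F5* sum in E8.5 Mk and 70.1% in E10.5 Endo. In HPC *Thbs1*, and in Endo *Plek*, passed the filter through E8.5 alone, which fixed their direction.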

How the results depend on the processing

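Each population was 1 sample of cells from 1 to 2 lanes, so the precision of these values between embryos is not known. No paired analysis was possible because no result comes from a test and the numbers in the labels only name cells. Of 1278 alternative values, 1050 moved by less than the spread set for them and 226 moved further. The other 2 were ratios past 2-fold in the report that changed direction. The log2 ratio of *Rab27b* between E10.5 and E9.5 HPC became 0.011 with means of log2 values, and that of *Srgn* between Mac and HPC became 1.22 with all captured cells. Some ratios not counted past 2-fold also crossed 0. Examples were *Thbs1* between Mac and HPC (-2.17 to 2.88) and *Rab27b* between E9.5 and E8.5 HPC (-4.39 to 0.14). The number of members 2-fold or more higher in E8.5 than in E8.25 HPC (1 in the report) was 2 with own-total CPM or without the highest cell, 3 with means of log2 values or all captured cells, 4 with no filter, and 0 with the stricter filter or at 4-fold. With the stricter filter (100 CPM and detection in 50% of cells) the counts higher and lower were 1 and 0 for HPC E9.5 over E8.5, 1 and 1 for HPC E10.5 over E8.5, 1 and 2 for Mac over HPC, and 1 and 0 for Endo, and the count lower was 0 for HPC E10.5 over E9.5. At 4-fold 0 were higher for HPC E10.5 over E9.5, 2 lower for HPC E10.5 over E8.5, 2 higher in E8.5 Mk, 0 lower in E10.5 Mk, and 1 higher and 1 lower in Mac. For HPC E10.5 over E9.5 the higher count was 2 with all captured cells and 3 with no filter, and the lower count 0 with means of log2 values or without the highest cell. In E8.5 Mk against HPC 1 was lower with means of log2 values, all captured cells, no filter or without the highest cell. In Mac 4 were higher with all captured cells, and in Endo 1 was lower with means of log2 values or without the highest cell. With 10 counts for detection the median number of members per cell was 3 in E9.5 and E10.5 HPC and 1 in E8.5 Endo. The causes were not tested. The count of 8 higher and 0 lower between the Mk stages, and of 8 higher in E10.5 Mk than HPC, stayed within 1.5 times under every alternative. The sizes of the log2 ratios did not. Means of log2 values moved 59 of these ratios beyond the spread set for them, reversed 1 and left 30 within it. A pseudocount of 10 CPM moved 42 beyond it and left 48 within it. Own-total CPM shifted the median log2 ratio of all genes by -0.19 for E10.5 Mk over HPC, -0.14 for Mac over HPC and 0.14 for HPC E10.5 over E8.5, and all captured cells by up to -0.62 (Mac over HPC). Leaving out the highest cell, or the 16 cells whose CPM summed to over 2000000, was chosen after seeing the data.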
